A study of Mus musculus with 7 samples.

Results

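The enzymes that build, lengthen and desaturate fatty acids were followed in RNA of aged mouse retinal pigment epithelium (RPE), the cell layer that supports the photoreceptors. The 10 genes were taken by symbol: Fasn, Acaca, Scd1, Scd2, Elovl2, Elovl4, Elovl5, Elovl6, Fads1 and Fads2. They are 10 of 52740 genes in the table of counts, and all 10 were among the 16990 genes that passed the filter on low counts and were tested. RPE of 4 WT mice of strain C57BL6/J (females F1, F2 and F3 and male M1) was compared with RPE of 3 LC3b-/- mice (females F1 and F3 and male M), which carry the Map1Lc3btm1Mrab allele on a mixed B6;129P2 background. Each mouse gave 1 library and all were labelled 24 months old. Strain background and genotype cannot be told apart in this design. The same holds for a group number in the mouse names, of unstated meaning, that no WT mouse shares with an LC3b-/- mouse. Values per library are always in the order of these names. The cells came off eyecups by hyaluronidase and trypsin, after cornea, ciliary body and lens had been taken away.

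Acetyl-CoA carboxylase (Acaca) makes malonyl-CoA, and fatty acid synthase (Fasn) uses it to build palmitate. Elovl6 lengthens palmitate to stearate, and the stearoyl-CoA desaturases Scd1 and Scd2 put a first double bond into it. Dietary linoleic and linolenic acid take another route, in which the desaturases Fads2 and Fads1 alternate with the elongases Elovl5 and Elovl2 to give arachidonic and docosahexaenoic acid, and Elovl4 extends such acids to the very long chains found in photoreceptor discs. The RPE takes up shed disc tips every day and recycles their docosahexaenoic acid.

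The libraries held 24495952 to 35616134 estimated counts. Map1lc3b, the gene targeted in LC3b-/-, stood at 115 ± 11.2 CPM (counts scaled to library size with TMM factors, mean ± SD, n = 4) in WT and at 7.28 ± 0.901 CPM (n = 3) in LC3b-/-. The summed level of 10 RPE markers was 30138 to 47444 CPM in WT and 13111 to 28172 CPM in LC3b-/-, and 9 of the 10 were lower in LC3b-/-, 6 of them with an unadjusted p under 0.05 (edgeR). Of these markers, Best1 was at most 1.71 CPM in any library. Ocular surface epithelium markers summed to 9.14 to 2418 CPM in WT and 3308 to 23506 CPM in LC3b-/-, with the highest sum in LC3b-/- F1. Endothelium markers summed to 373 to 1152 CPM in WT and 1318 to 1564 CPM in LC3b-/-. For Muller glia the sums were 2589 to 2921 CPM in WT and 2235 to 3348 CPM in LC3b-/-. Glul and Dkk3 made up most of these sums. The mean log2 CPM of the 8 Muller glia markers was less even, from 4.27 in WT M1 to 6.84 in LC3b-/- F3. For macrophages and microglia the sums were 370 to 506 CPM in WT and 237 to 455 CPM in LC3b-/-. Csf1r was the largest part of them, with means of 266 CPM in WT and 164 CPM in LC3b-/-. By fold change, 3 of these 8 markers were higher and 5 lower in LC3b-/-. Only Cd68 had an unadjusted p under 0.05 in edgeR, and it was higher (log2 fold change 1.03, unadjusted p = 0.0164). In whole-RPE RNA, fewer cells of a type and less RNA per cell cannot be told apart.

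A gene was called where its adjusted p was below 0.05 and it differed by 1.5-fold or more. By edgeR this took in 0 of the 10 genes, where 0.235% of all genes tested were called (40 of 16990), 0.124% higher and 0.112% lower. DESeq2 called 2 of the 10, Elovl2 and Fads2, both lower, where 9.8% of its 18678 tested genes were called, 6.74% higher and 3.06% lower. Limma's voom called 0 of the 10, and 124 of all 16990 genes tested. At an unadjusted p under 0.05 in edgeR, 3 of the 10 were lower (Elovl2, Fads1 and Fads2) and 0 higher. That is 30% of the genes, where 10.6% of all genes tested were lower, 13.5% higher and 24.1% different in either direction at the same p. The median log2 fold change of the 10 genes was -0.24, beside 0.01 over all genes tested. The 5 enzymes of the polyunsaturated route (Elovl2, Elovl4, Elovl5, Fads1 and Fads2) had a median of -0.81, and the 5 of the saturated and monounsaturated route a median of -0.03.

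Proximal promoters of 3 of these genes are shown because Elovl2 and Fads2 gave the smallest p among the 10, and Fasn the smallest among the genes with a higher mean in LC3b-/-. Each runs 5′ to 3′ on the strand of the gene from 250 bases before to 50 bases after the start given by RefSeq on GRCm38.p6, and capitals mark motif matches: GGGCGG (GC box) in Elovl2 and Fads2, CCAAT or its reverse complement in Fasn.
Fasn, chr11:120824498-120824797, minus strand: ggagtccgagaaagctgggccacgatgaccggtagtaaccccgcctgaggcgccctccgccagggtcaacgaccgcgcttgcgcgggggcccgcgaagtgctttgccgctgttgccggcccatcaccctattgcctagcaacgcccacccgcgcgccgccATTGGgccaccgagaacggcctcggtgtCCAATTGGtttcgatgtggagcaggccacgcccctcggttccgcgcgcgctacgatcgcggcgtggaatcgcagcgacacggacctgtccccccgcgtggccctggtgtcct
Elovl2, chr13:41220354-41220653, minus strand: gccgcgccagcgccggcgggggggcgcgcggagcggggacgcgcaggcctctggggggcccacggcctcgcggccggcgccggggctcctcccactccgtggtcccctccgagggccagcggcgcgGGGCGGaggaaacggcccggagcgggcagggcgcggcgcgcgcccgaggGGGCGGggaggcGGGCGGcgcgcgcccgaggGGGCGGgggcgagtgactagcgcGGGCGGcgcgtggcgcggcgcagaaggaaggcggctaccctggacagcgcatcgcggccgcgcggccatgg
Fads2, chr19:10101454-10101753, minus strand: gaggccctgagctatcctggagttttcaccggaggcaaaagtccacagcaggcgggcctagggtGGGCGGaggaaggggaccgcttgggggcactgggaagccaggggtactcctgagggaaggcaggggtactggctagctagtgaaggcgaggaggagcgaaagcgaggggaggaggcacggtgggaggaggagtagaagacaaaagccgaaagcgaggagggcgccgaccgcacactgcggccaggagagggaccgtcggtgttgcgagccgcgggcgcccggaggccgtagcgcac
RefSeq windows were at hand for 7 of the 10 genes, 8 windows in all, and 4 motifs were searched on both strands. For Elovl2, which had a second, overlapping window, the window with more motif matches was chosen for display. The GC box matched 5 times in the Elovl2 window, starting 124, 75, 63, 44 and 21 bases before the start, and 1 time in the Fads2 window, 186 bases before it. It also matched 2 times in the Elovl4 window and 0 times in a second Elovl2 window and in the windows of Fasn, Acaca, Elovl5 and Elovl6. It is in 35.7% of all 32851 mouse promoter windows of this length. CCAAT matched 3 times in the Fasn window, 90, 62 and 59 bases before the start, where the last 2 matches lie on opposite strands and overlap. It also matched 2 times in the Elovl5 window and 1 time in that of Elovl4, and it is in 37.4% of all windows. The E-box CACGTG matched 1 time each in the windows of Elovl4 and Elovl5 and in 7.15% of all windows. The sterol regulatory element, in the exact letters known from the LDL receptor gene, was in none of the 8 windows and in 0.0913% of all.

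Fads2 encodes the delta-6 desaturase, the first step of the polyunsaturated route, and lies on chromosome 19 (GRCm39, 10038130 to 10079203) in reverse orientation beside Fads1 (10160167 to 10174241). Its level was 250, 245, 290 and 395 CPM in the WT libraries and 147, 146 and 212 CPM in the LC3b-/- libraries. The genotypes did not overlap, with LC3b-/- below WT throughout, and in each genotype the male was highest. The group levels were 295 ± 69.8 CPM (SD, n = 4) and 168 ± 38.1 CPM (n = 3), a log2 fold change of -0.81 (SE 0.23, unadjusted p = 0.0088, adjusted p = 0.112 in edgeR). DESeq2 gave -0.84 with an adjusted p of 0.0177.

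Elovl2 encodes the elongase that makes the precursors of docosahexaenoic acid, on chromosome 13 (41335857 to 41374112). It was at 20.5, 36.3, 36.7 and 40.1 CPM in the WT libraries and at 4.31, 13.6 and 20.3 CPM in the LC3b-/- libraries. The groups did not overlap, but LC3b-/- M all but touched WT F1, and LC3b-/- F1 was far below its group with 107 counts. The means were 33.4 ± 8.75 and 12.7 ± 8.01 CPM, and the log2 fold change was -1.39 (SE 0.49, unadjusted p = 0.0241, adjusted p = 0.157 in edgeR). DESeq2 gave -1.42 with an adjusted p of 0.0293. Elovl2 and Fads2 were the only genes of the 10 without overlap between genotypes, both lower, which is 20% of the genes. Of all genes tested, 22.3% had groups without overlap, 10.3% with LC3b-/- below WT and 12% with LC3b-/- above.

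Fads1, the delta-5 desaturase downstream of Fads2, was at 198, 152, 184 and 233 CPM in the WT libraries and at 137, 130 and 162 CPM in the LC3b-/- libraries. LC3b-/- M was above WT F2, so the ranges overlapped. Its log2 fold change was -0.42 (SE 0.17, unadjusted p = 0.0406, adjusted p = 0.191 in edgeR).

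Elovl4 varied most widely among the WT libraries after Scd1 relative to its mean, with 42.5, 152, 96.8 and 41.2 CPM in the WT libraries and 12.4, 74.1 and 43.9 CPM in the LC3b-/- libraries. The genotypes overlapped between WT M1 and LC3b-/- F3. The log2 fold change was -0.94 (SE 0.68, adjusted p = 0.424 in edgeR), and single libraries moved it, to -0.47 without WT F2, -0.50 without LC3b-/- F1 and -1.61 without LC3b-/- F3. Elovl5, the elongase of the middle of the route, was by contrast even, at 69.9 ± 6.43 CPM in WT and 70.7 ± 3.15 CPM in LC3b-/-, a log2 fold change of 0.02 (SE 0.11) whose sign turned in 6 alternatives.

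In the saturated and monounsaturated route no gene had an unadjusted p under 0.05 in edgeR over all 7 libraries. Fasn was at 113, 85.4, 118 and 136 CPM in the WT libraries and at 197, 128 and 110 CPM in the LC3b-/- libraries. Only LC3b-/- F1 was outside the WT range, and the log2 fold change was 0.36 (SE 0.24, adjusted p = 0.383 in edgeR). Elovl6 had the same pattern, with 73.2 CPM in LC3b-/- F1 where the other 6 libraries held 29.9 to 50.5 CPM, and a log2 fold change of 0.32 (SE 0.26, adjusted p = 0.467). Without LC3b-/- F1 the values were 0.07 for Fasn and 0.02 for Elovl6, and in females only Fasn was at 0.62 (unadjusted p = 0.0496, adjusted p = 0.230 in edgeR). Elovl6 was at 0.19 without WT F2 and at 0.50 without LC3b-/- F3. Acaca was nearly level, at 68.4 ± 6.71 CPM in WT and 65.6 ± 1.78 CPM in LC3b-/-, a log2 fold change of -0.06 (SE 0.11).

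The desaturase genes Scd1 and Scd2 are neighbours on chromosome 19 and share 623 bases at 95.5% identity, so that some reads could be assigned to either. Scd1 was at 124, 49.9, 24.2 and 29.2 CPM in the WT libraries and at 38.1, 34.6 and 37.1 CPM in the LC3b-/- libraries. The 3 LC3b-/- libraries were close together and lay inside the WT range, which WT F1 stretched upward. The log2 fold change was -0.64 (SE 0.55, adjusted p = 0.502 in edgeR), and without WT F1 it was 0.09. With limma's voom and sample weights it was -0.10. Scd2 ranged from 393 to 688 CPM in WT and from 445 to 593 CPM in LC3b-/-, with a log2 fold change of -0.03 (SE 0.23) whose sign depended on the setting.

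**Figure D1:**
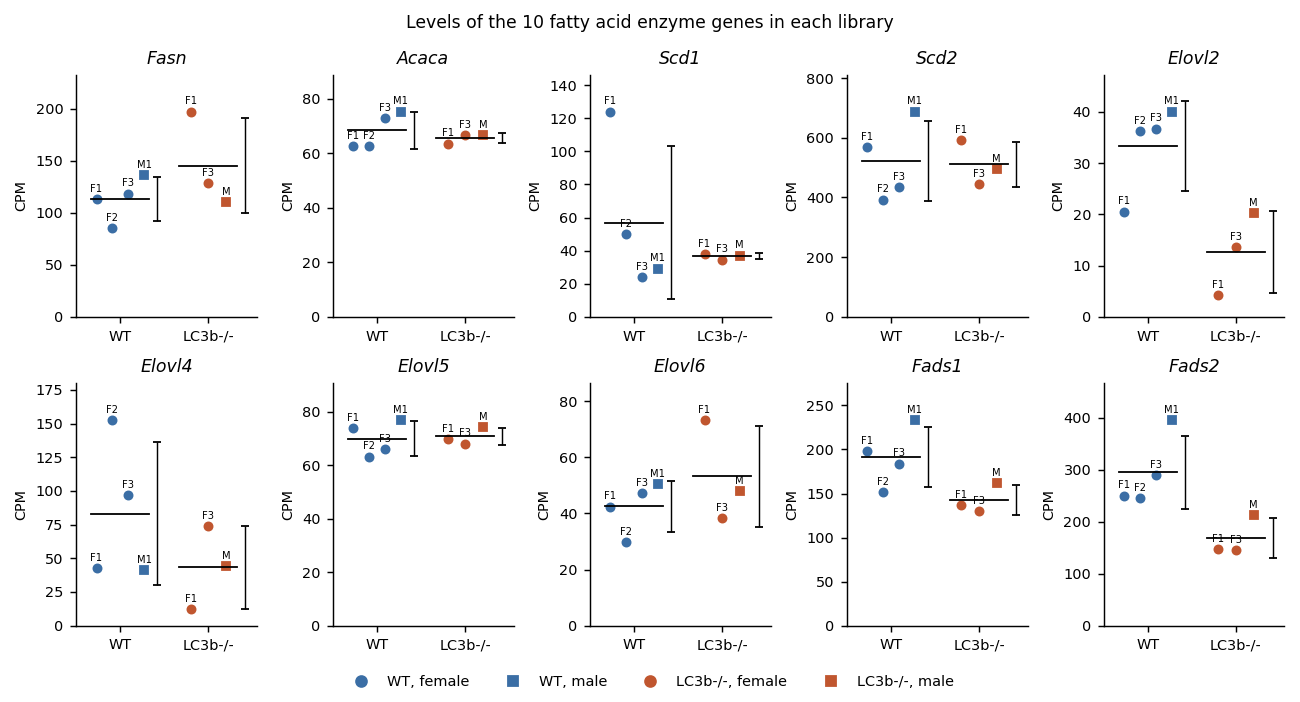
Levels of the 10 genes in CPM (TMM-scaled, linear axes from 0), 1 point per library, labelled by mouse, with squares for males. Horizontal lines are group means and the bars beside them ± SD (4 WT and 3 LC3b-/- libraries). LC3b-/- libraries lie below all WT libraries for Elovl2 and Fads2, while the groups overlap for the other 8 genes.

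Per kilobase of the canonical transcript, WT levels were highest for Scd2 (95.5 ± 24.6 CPM per kilobase) and Fads2 (91.0 ± 21.5), then Fads1 (54.0 ± 9.54). Elovl4 (26.6 ± 16.9) and Elovl5 (23.6 ± 2.17) came next, and Scd1, Fasn, Elovl2, Acaca and Elovl6 lay between 11.3 and 6.93 CPM per kilobase. Between neighbours in this order the WT ranges overlapped, other than for Fads2 and Fads1, where Fads2 was higher in 7 of 7 libraries. In LC3b-/- the top 3 places were the same, and Elovl2 went from 8th to last place at 3.13 ± 1.97 CPM per kilobase (n = 3).

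Ratios within a library do not depend on scaling between libraries, and 3 were compared with a two-sided exact permutation test over the libraries (35 arrangements), for which the smallest possible p is 0.0286. The log2 ratio of Elovl2 to Elovl5 counts was -1.85, -0.80, -0.84 and -0.94 in the WT libraries and -4.01, -2.32 and -1.87 in the LC3b-/- libraries. The groups did not overlap here either, by a small gap between LC3b-/- M and WT F1, and the difference of -1.63 had an exact permutation p of 0.0571 (0.129 after adjustment over the 3 ratios). Fads2 over Fads1 was 0.61 ± 0.19 in WT and 0.22 ± 0.15 in LC3b-/-, with LC3b-/- M above WT F1, a difference of -0.39 (exact permutation p = 0.0857, adjusted 0.129). Scd1 over Scd2 was -3.47 ± 1.09 and -3.79 ± 0.14, a difference of -0.32 (exact permutation p = 0.629) that became 0.11 without WT F1.

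**Figure D2:**
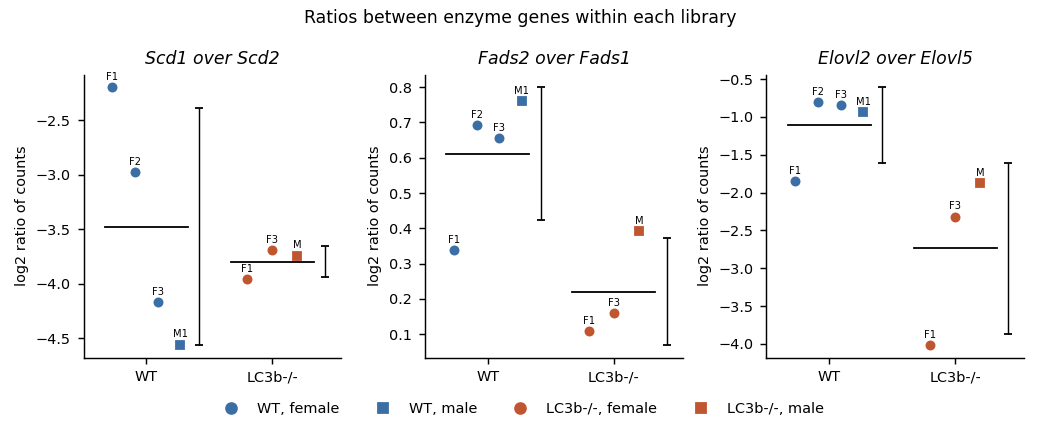
Log2 ratios of counts (0.5 added to each) of 3 pairs of genes within each library, labelled by mouse, with squares for males. Lines and bars are mean ± SD of 4 WT and 3 LC3b-/- libraries, and the axes do not start at 0. Elovl2 over Elovl5 is lower in all 3 LC3b-/- libraries than in any WT library, by a narrow gap between LC3b-/- M and WT F1.

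The levels of some of the genes are set here beside marker sums of cell types in the same libraries. Fads2 was highest in WT M1, where RPE markers summed to 47444 CPM, and lowest in LC3b-/- F3 and F1, where they summed to 15870 and 13111 CPM. When each gene was set against the mean log2 level of the 10 RPE markers, a measure chosen after the data had been seen, Fads2 was -1.28 ± 0.21 in WT and -1.30 ± 0.18 in LC3b-/-, a difference of -0.01 in place of -0.80 without that reference. Elovl2 was still lower by this measure, with a difference of -0.81 in place of -1.60, and the groups then overlapped. Fads1 went from -0.41 to 0.38, and Fasn, Acaca, Scd2, Elovl5, Elovl6 and Fads1 lay above the WT range in all 3 LC3b-/- libraries. That is 6 of 10 genes, beside 49.3% of all genes tested, and the markers themselves were lower by 0.79 on average. On this measure 0 of the 10 genes, and 0.559% of all, lay below the WT range without overlap. How far the RPE content of the libraries had a part in the lower Fads2 and Elovl2 was not tested.

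**Figure D3:**
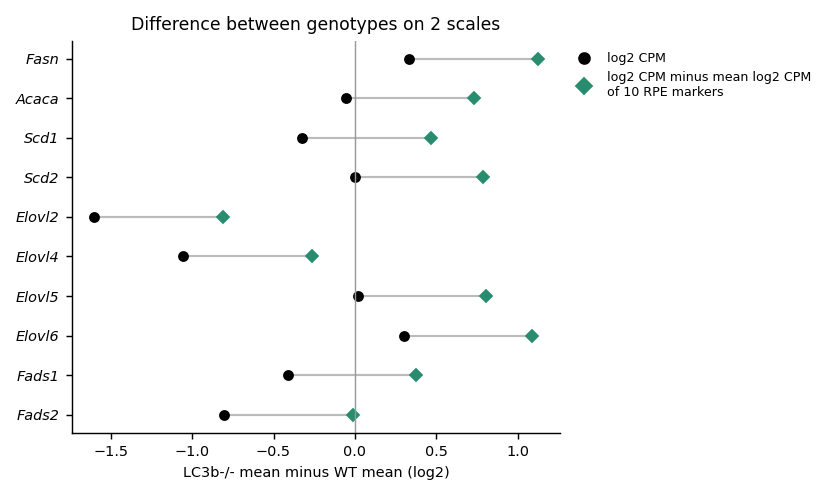
Difference between the LC3b-/- and WT means (log2) for the 10 genes, as log2 CPM (black circles) and as log2 CPM minus the mean log2 CPM of 10 RPE markers (green diamonds). Every gene shifts by 0.79, Fads2 moves from -0.80 to -0.01, and Elovl2 and Elovl4 stay below 0 on both scales.

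Elovl4, a gene of photoreceptors, was highest in WT F2, WT F3 and LC3b-/- F3, the libraries with the most photoreceptor RNA (14 markers summing to 22455, 9615 and 7666 CPM). It was lowest in LC3b-/- F1, where they summed to 99.4 CPM. In WT M1, with a sum of 278 CPM, Elovl4 was still at 41.2 CPM and Elovl2 at 40.1 CPM, its highest level. All 14 photoreceptor markers were lower in LC3b-/- by fold change, 0 of them with an unadjusted p under 0.05 in edgeR.

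Scd1 was highest in WT F1 and next in WT F2, the libraries with the highest sums of 7 markers of myelinating glia (4782 and 1962 CPM, against 281 to 1009 CPM in the other 5). Below these the order did not hold, since WT M1, with 1009 CPM of the markers, had less Scd1 (29.2 CPM) than any LC3b-/- library. At an unadjusted p under 0.05 in edgeR, 5 of these 7 markers were lower in LC3b-/- and 1 higher. Fasn and Elovl6 were highest in LC3b-/- F1, where the ocular surface epithelium markers summed to 23506 CPM. WT F3, where they summed to 9.14 CPM, nevertheless had more Fasn (118 CPM) than LC3b-/- M (110 CPM), where they summed to 3308 CPM. All 10 of these markers were higher in LC3b-/- by fold change, 7 with an unadjusted p under 0.05 in edgeR. The adipocyte markers Adipoq, Plin1, Cidec and Lep had at most 20 counts in any library, and Retn was at most 0.953 CPM. Fabp4 was at 3.74 to 11.6 CPM in WT and 9.87 to 14.8 CPM in LC3b-/- (log2 fold change 0.80, unadjusted p = 0.065 in edgeR). The 6 adipocyte markers together summed to no more than 15.3 CPM. The part of other cell types in the levels of Elovl4, Scd1, Fasn and Elovl6 was not tested.

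**Figure D4:**
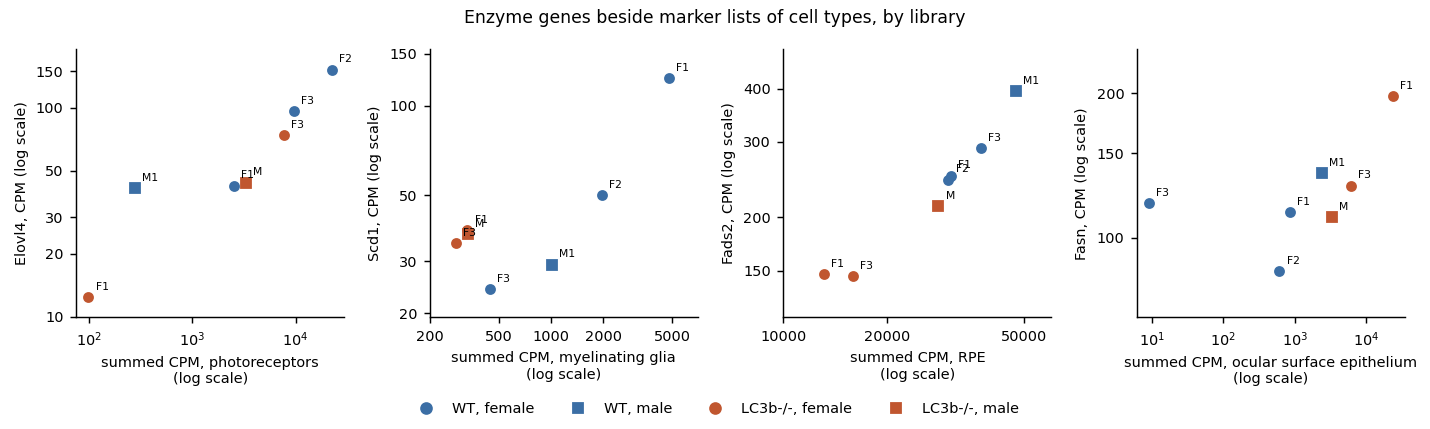
Levels of Elovl4, Scd1, Fads2 and Fasn (CPM, log axis) against the summed CPM (log axis) of markers of photoreceptors, myelinating glia, RPE and ocular surface epithelium, 1 point per library labelled by mouse. Elovl4 and Fads2 are lowest in LC3b-/- libraries with low sums on the horizontal axis, Scd1 stands out in WT F1 at 4782 CPM, and Fasn in LC3b-/- F1 at 23506 CPM.

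The genes whose profile over the 7 libraries lay nearest to Fads2, by the root mean square difference of centred log2 CPM, included Nudt12 (0.0286) and St13 (0.0622), where the median over all genes was 0.598. Nudt12 encodes a peroxisomal nucleotide hydrolase. Nearest to Elovl2 were Osbp2 (0.278), Gm28496 (0.294) and Tafa3 (0.314), where the median over all genes was 1.11. All were farther from Elovl2 than Nudt12 and St13 were from Fads2. Elovl2 itself also varied more, with a root mean square of 1.04, where that of Fads2 was 0.479.

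Of 55 other genes of the pathway, 53 were tested and 0 were called by edgeR, beside 0.235% of all genes tested. DESeq2 called 4 (Mlycd, Acsl5, Acsl6 and Slc27a1), where it called 9.8% of its 18678 tested genes. Limma's voom called 0 of them, and 124 of all 16990 genes tested. At an unadjusted p under 0.05, 8 were higher and 10 lower, 34% of the genes beside 24.1% of all genes tested (13.5% higher and 10.6% lower), and the median log2 fold change was -0.07.

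A list of 11 genes around carbon, malonyl-CoA and NADPH supply, mitochondrial fatty acid synthesis included, had 5 lower (45.5%, beside 10.6% of all genes) and 0 higher at that p, with a median of -0.29. The 5 were not those that supply cytosolic acetyl-CoA. Mlycd, which breaks malonyl-CoA down, was lower without overlap (log2 fold change -0.80, SE 0.20, adjusted p = 0.0967 in edgeR), as were Hsd17b8 (-0.37), Oxsm (-0.56) and Cbr4 (-0.65), enzymes of mitochondrial fatty acid synthesis. The remaining gene was Me1, the NADPH-making malic enzyme (-0.63), with overlap. Groups without overlap made up 36.4% of this list, beside 22.3% of all genes tested. The citrate carrier Slc25a1 (0.37), the citrate lyase Acly (0.23) and the acetyl-CoA synthetase Acss2 (0.33) had positive values with an unadjusted p above 0.05 in edgeR.

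Of the other elongases and elongation cycle enzymes, 2 of 8 tested genes were lower (25%) and 0 higher at an unadjusted p under 0.05. At that p in edgeR, 24.1% of all genes tested differed, 10.6% lower and 13.5% higher. The 2 lower genes were the ketoacyl-CoA reductase Hsd17b12 (-0.41, SE 0.14, adjusted p = 0.145 in edgeR), without overlap, and the dehydratase Hacd3 (-0.44). The enoyl reductase Tecr was at -0.19 (unadjusted p = 0.0902 in edgeR). Its groups did not overlap either, at 140 to 150 CPM in WT and 122 to 130 CPM in LC3b-/-. Groups without overlap made up 25% of this list, beside 22.3% of all genes tested.

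Of 8 other desaturases and electron donors, Cyb5r3, a cytochrome b5 reductase that passes electrons toward the desaturases, was higher without overlap (0.55, SE 0.16, adjusted p = 0.113 in edgeR). Fads3, the third gene of the Fads cluster, was lower (-0.70, SE 0.30, adjusted p = 0.207), and Cyb5a, the electron carrier, was at -0.17 (adjusted p = 0.480). Groups without overlap made up 12.5% of this list, beside 22.3% of all genes tested.

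The acyl-CoA synthetases, which activate free fatty acids, had the largest share of differences among the 5 lists: 7 of 9 tested genes had an unadjusted p under 0.05, 5 higher and 2 lower, with a median of 0.38. That is 77.8%, beside 24.1% of all genes tested. Acsl5 was at 24.2, 17.2, 14.04 and 15.9 CPM in the WT libraries and at 50.2, 34.6 and 31.5 CPM in the LC3b-/- libraries. All LC3b-/- libraries were above all WT libraries, with a log2 fold change of 1.12 (SE 0.24, unadjusted p = 0.0018, adjusted p = 0.0906 in edgeR). Acsl4, which prefers arachidonic acid, was higher (0.46, adjusted p = 0.133), and Slc27a1, a fatty acid transport protein, lower (-0.66, adjusted p = 0.129), both without overlap. Groups without overlap made up 77.8% of the tested genes of this list, beside 22.3% of all genes tested.

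Of 17 regulators of lipogenesis, 2 were higher and 0 lower at an unadjusted p under 0.05 in edgeR (11.8%, beside 24.1% of all genes). Groups without overlap made up 0% of this list, beside 22.3% of all genes tested. Srebf2, which drives sterol synthesis genes, had a log2 fold change of 0.46 (SE 0.18, adjusted p = 0.182 in edgeR), with 189 CPM in LC3b-/- F1 and 117 CPM in LC3b-/- M, just below WT M1 at 118 CPM. Insig1, a sterol-responsive brake on SREBP processing, was at 0.56 (adjusted p = 0.208), and Mbtps2, the site-2 protease, at -0.39 (adjusted p = 0.231).

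**Figure D5:**
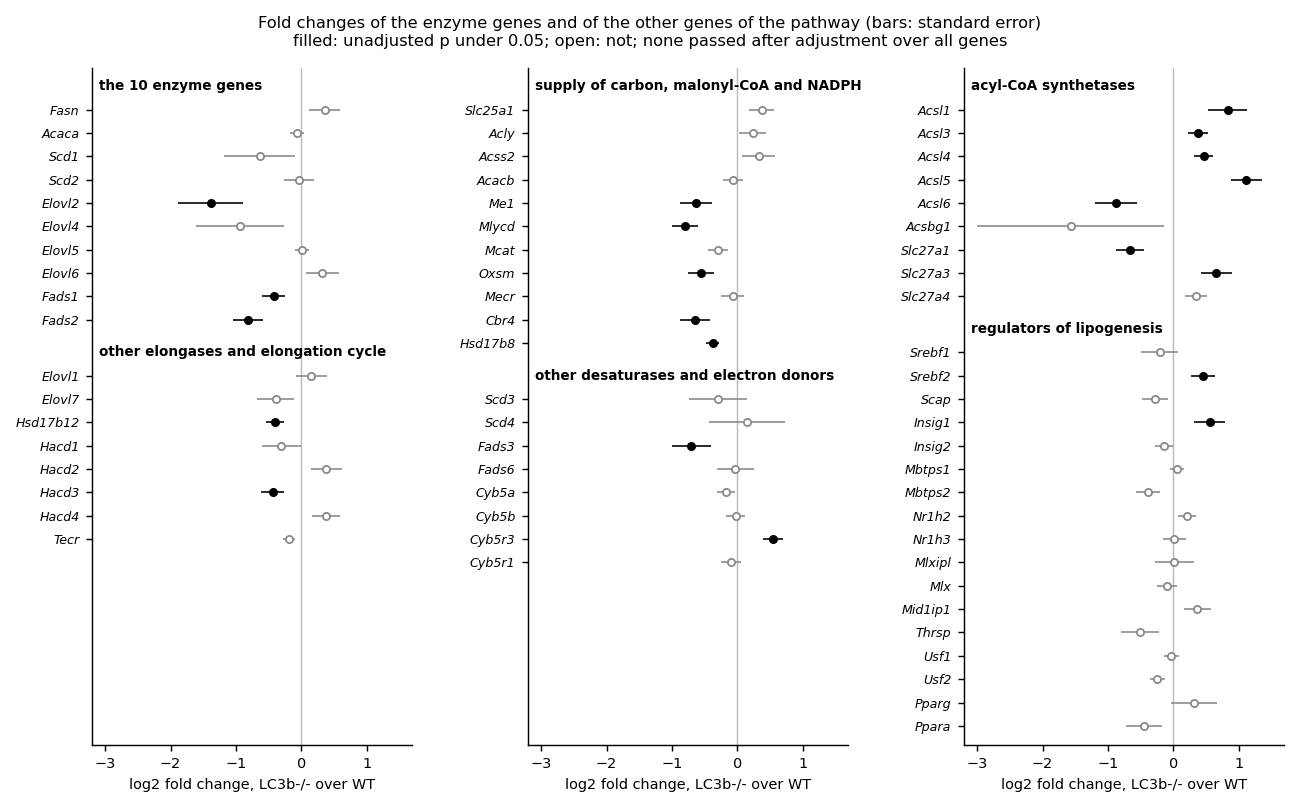
Log2 fold change of LC3b-/- over WT (edgeR, horizontal axis) for the 10 genes and the 53 tested other genes of the pathway, grouped by role, with bars of 1 standard error. Filled points have an unadjusted p under 0.05 and none passed after adjustment. Filled points among the 10 genes, Elovl2, Fads1 and Fads2, lie below 0, and the open points of Scd2 and Elovl5, near 0, change sign with the setting.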

How the data were processed

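RNA of RPE from 7 mice was sequenced with a stranded kit as single reads. The authors quantified transcripts with Salmon 1.9.0 against GENCODE vM26 (GRCm39) and summed them to genes with tximeta 1.16.1, so the deposited values are estimated counts per gene, given as whole numbers and unscaled. All columns were used (0 unused). Symbols and positions came from GENCODE vM39 (51721 of 52740 identifiers matched). In R 4.3.3, edgeR 4.0.16 was run on all 7 libraries: filterByExpr, TMM and the quasi-likelihood test without covariates, with Benjamini-Hochberg adjustment over the 16990 genes tested. CPM are TMM-scaled, and log2 CPM used a prior count of 2. A mouse counts as 1 replicate.

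Named are the 10 genes, up to 3 genes of smallest p per pathway list, and the 3 nearest profiles of the 2 genes with the smallest p, of which 1 is not reported here. Genes and lists were chosen with earlier results of these data known. The markers Best1, Csf1r, Cd68, Glul, Dkk3, Adipoq, Plin1, Cidec, Lep, Fabp4 and Retn were named after their values were seen. So were Acsl6, which DESeq2 called, and Cbr4, Me1, Slc25a1, Acly and Acss2. Alternatives were DESeq2 1.42.0, limma 3.58.1 voom with sample weights, other size factors and filters, sex as a covariate, females only, a replicate block, each library left out, and other pseudocounts and fold-change thresholds. The code was tested on simulated data. Near copies were found with BLAST 2.17.0 (95% identity over 100 bases). Acaca has a pseudogene copy, Gm5182, with at most 10 counts. Figures used Python 3.11.15 and matplotlib 3.10.9.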

Additional observations from a re-analysis of the deposited data

Results flagged for a closer look

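The log2 ratio of Elovl2 to Elovl5 in WT F1 was -1.85, far from the other 3 WT libraries, the nearest of which was at -0.94. The gap was 0.868 of the group's range, above Dixon's critical value for 4 samples. With 28 WT groups of values examined, chance flags about 1 in 20. The genotype difference in this ratio was -1.63 with WT F1, and over all left-out libraries it lay between -2.06 and -0.99. A difference of the genotype effect between females and males was found for 0 of the 10 genes (smallest unadjusted p of the edgeR interaction 0.0912, for Fasn, with 1 male per genotype).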

How the results depend on the processing

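The number of the 10 genes called was 0 in edgeR, 2 with DESeq2, and 1 with sex as a covariate (Fads2, adjusted p = 0.0432). Of all genes tested, the same settings called 40, 1831 and 197. Among the 10, the number called was 0 with each library left out. Of all genes tested, these fits called from 11 (without LC3b-/- F3) to 485 (without LC3b-/- M). The number of the 10 at an unadjusted p under 0.05 was 2 or 3 in every alternative, always with Elovl2 and Fads2 (largest p 0.0496 and 0.0339 over the alternatives). The other gene was Fads1 or, in females only, Fasn. Elovl2 ranged from -1.89 to -0.98 (adjusted p 0.0293 to 0.301) and Fads2 from -1.01 to -0.64 (adjusted p 0.0177 to 0.334). DESeq2 called 4 of the other pathway genes. Leaving out libraries gave 0 to 1 of them (Acsl5 without WT F1, where 215 of all genes tested were called). The number of the other pathway genes at an unadjusted p under 0.05 was 18, and 9 to 21 with libraries left out. It was 9 when either LC3b-/- F1 or F3 was dropped and 11 without WT F3.

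Of the fold changes of the 10 genes, 14 values turned in sign, in Scd1, Scd2 and Elovl5, and the cause was not tested. Scd1 was -0.888 to 0.0885 with libraries left out. Scd2 was 0.0329 with voom, 0.00352 with library size alone, 0.154 in females only, 0.0478 with the replicate block, and -0.15 to 0.13 with libraries left out. Elovl5 was -0.00796 with DESeq2, -0.00426 with DESeq2 size factors, -0.0176 with the replicate block, and -0.0304 to 0.0616 with libraries left out. Scd1 over Scd2 was -0.68 to 0.11 with libraries left out.

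LC3b-/- and WT mice share only the names F1 and F3 and are different animals. Deviations of the like-named mice correlated at 0.146 and 0.243, and each LC3b-/- mouse of the pair correlated best with another WT mouse. The replicate block in edgeR gave -1.83 for Elovl2 (adjusted p = 0.121) and -0.88 for Fads2 (adjusted p = 0.164). It had 3 of the 10 genes at an unadjusted p under 0.05. Called were 0 of the 10 and 0 of all genes tested.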
